A study of Mus musculus with 16 samples.

Results

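Hearts of mice homozygous for the Clock delta 19 mutation were compared after a high-fat diet and after standard chow. The comparison rests on 8 of the 16 arrays of the study, 4 from Clock mice on the high-fat diet and 4 from Clock mice on chow, with 1 array per mouse. The other 8 arrays came from wild-type (WT) mice on the same diets, 4 per diet, and are used here for the estimate of spread and as a reference. All mice were on the C57Bl/6J background, were 32 weeks old and had been on their diet for 24 weeks. Hearts were taken 7 hours after lights on, in the light phase, and frozen. The labels call the tissue myocardium, and RNA was taken with Trizol. The labels call the Clock allele transgenic, and the mutation is carried in every tissue, so effects of the heart's own clock and of the animal's feeding and activity cannot be told apart. Of 34351 probe sets on the array, the 23521 that carry exactly 1 gene symbol were averaged into 22180 genes, all of which are members of the comparison.

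CLOCK pairs with ARNTL (BMAL1) and switches on genes that hold E-boxes, among them the Per, Cry and Nr1d genes whose products close the daily feedback loop. The delta 19 protein still pairs with ARNTL but activates transcription poorly. Heart muscle draws most of its energy from fatty acids, which enter mitochondria through the carnitine shuttle and are shortened by the enzymes of beta-oxidation. Fatty acids also bind PPAR receptors, which switch on many genes of fat uptake, storage and oxidation.

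The deposited log values are centred at 0 for every probe set across the 16 arrays and therefore give relative levels, not absolute ones. They were taken as log2 with positive values meaning higher expression, which the files do not state. The number of arrays limits the precision. The Clock chow array of replicate 4 stood furthest from the rest: its weight in a fit with array weights was 0.656, against 1.00 to 1.42 for the other 7 Clock arrays, and its mean correlation with its own group was 0.0051. Immediate early genes, which respond within minutes to handling or stress, averaged from −0.38 to 0.38 in the Clock mice on the high-fat diet and from −0.09 to 0.28 in those on chow, so the groups overlapped. The 14 cardiomyocyte markers differed by a median of 0.033 between diets, and their absolute level cannot be read from centred values.

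The high-fat diet changed 20 genes in Clock hearts at an adjusted p under 0.05 (limma, moderated test with Benjamini-Hochberg adjustment over all genes), which is 0.0902% of the genes tested. Of these, 11 rose (0.0496%) and 9 fell (0.0406%). The genes that rose were led by Mthfd2, a mitochondrial folate enzyme, and included 5 enzymes of fatty acid handling: Ephx2, Hsd17b4, Acadvl, Hadha and Acaa2. The genes that fell were led by C7, a component of the complement membrane attack complex, and included the growth factor Tgfb1 and the coagulation inhibitor Tfpi. In each of the 20 genes, all 4 mice on the high-fat diet lay on one side of all 4 mice on chow. Across all genes tested, 5.31% had non-overlapping diet groups and 8.42% had an unadjusted p under 0.05 (4.63% higher and 3.79% lower).

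**Figure D1:**
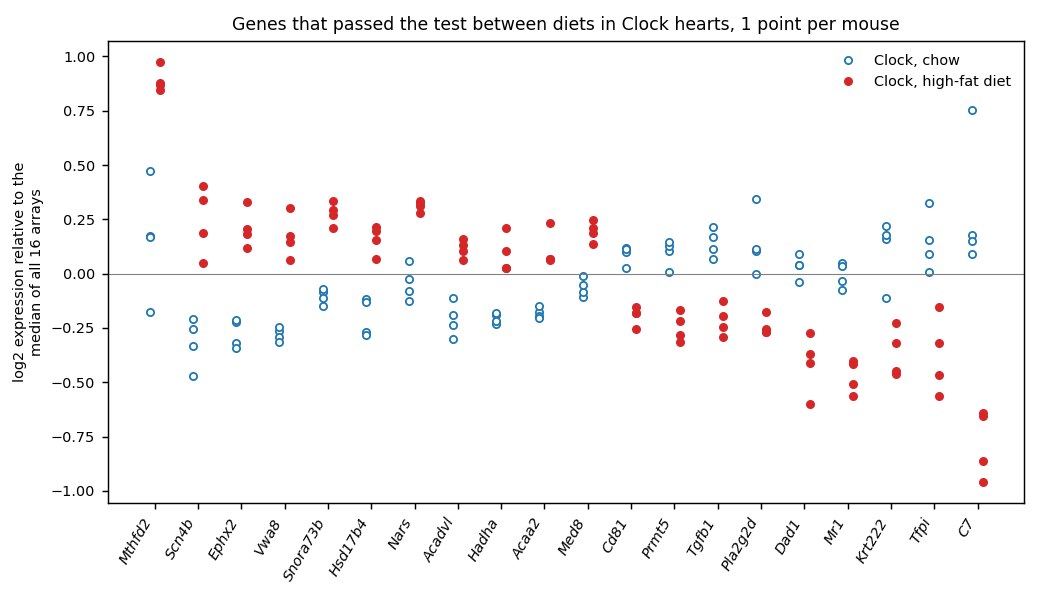
Log2 expression relative to the median of all 16 arrays (vertical axis) for the 20 genes that passed the test, with 1 point per Clock mouse (open, chow; filled, high-fat diet; 4 mice each). The 2 groups are separated in every gene, by the widest mean difference in C7 (−1.07) and by a mean difference of 0.73 in Mthfd2.

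By these counts, the clearest group was mitochondrial fatty acid oxidation, among lists chosen with earlier results of these data known. Of its 19 measured genes (of 21 listed), 3 rose, Hadha, Acadvl and Acaa2, and none fell. In 15 of the 19, every mouse on the high-fat diet was above every mouse on chow, against 2.89% of all genes tested, and in none were they all below, against 2.42%. The median difference over the list was 0.20, against 2.13e-05 over all genes, and 18 of the 19 differences were above 0.

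Hadha encodes the alpha subunit of the mitochondrial trifunctional protein, which carries out the later steps of long-chain beta-oxidation. Its relative level was 0.03, 0.03, 0.10 and 0.21 in the 4 mice on the high-fat diet and −0.19, −0.23, −0.18 and −0.22 in the 4 on chow. It rose by 0.30 ± 0.05 (SE; 1.23-fold, adjusted p = 0.0234). Its partner subunit gene Hadhb lies head to head with it, and the RefSeq start sites are 273 bases apart. Hadhb differed by 0.14 ± 0.08 (adjusted p = 0.673): its values on the high-fat diet, 0.02 to 0.10, overlapped those on chow, −0.35 to 0.06. The chow mouse at −0.35 was replicate 4, and the other chow mice lay between −0.04 and 0.06.

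Acadvl encodes the very long-chain acyl-CoA dehydrogenase, the first enzyme of the cycle for long chains. It read 0.06, 0.13, 0.10 and 0.16 on the high-fat diet and −0.24, −0.19, −0.11 and −0.30 on chow, a rise of 0.32 ± 0.06 (1.25-fold, adjusted p = 0.0335). Acaa2, the mitochondrial thiolase that releases acetyl-CoA, read 0.07, 0.06, 0.07 and 0.23 against −0.18, −0.20, −0.15 and −0.21. It rose by 0.29 ± 0.05 (1.22-fold, adjusted p = 0.0304), and the mouse at 0.23 stood apart from the other 3 on its diet.

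The sequences before the start sites of Acadvl and Hadha are shown because both genes rose and the nuclear receptor motif AGGTCA, to which PPAR and its partner bind as a spaced repeat, was found in only one of them. They are the 250 bases upstream of each RefSeq start on GRCm38.p6, both on the minus strand, at chr11:70015429-70015678 for Acadvl and chr5:30154981-30155230 for Hadha, with AGGTCA in capitals.
Acadvl: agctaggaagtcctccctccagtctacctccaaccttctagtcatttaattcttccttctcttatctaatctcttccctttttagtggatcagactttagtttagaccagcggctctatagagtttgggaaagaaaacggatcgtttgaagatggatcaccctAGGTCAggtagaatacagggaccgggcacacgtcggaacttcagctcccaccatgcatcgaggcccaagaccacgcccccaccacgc
Hadha: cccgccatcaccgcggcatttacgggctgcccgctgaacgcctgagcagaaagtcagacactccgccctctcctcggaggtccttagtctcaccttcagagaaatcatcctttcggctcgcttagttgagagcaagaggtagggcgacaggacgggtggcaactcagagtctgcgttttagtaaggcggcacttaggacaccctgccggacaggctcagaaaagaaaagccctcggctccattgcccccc
The motif in Acadvl begins 87 bases before the start. Searched on both strands, AGGTCA was present in 13.8% of 27025 mouse promoters of this length, 1 per gene, and in 2 of the 13 genes of the 20 that have an entry, Acadvl and C7. Its absence from the Hadha window says only that these letters are not there.

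The measured carnitine shuttle genes of the list did not pass. Slc25a20, the carnitine-acylcarnitine carrier of the inner membrane, lay between −0.06 and 0.13 on the high-fat diet and between −0.37 and −0.24 on chow, a difference of 0.33 ± 0.07 (adjusted p = 0.100). Cpt2, which rebuilds acyl-CoA inside the mitochondrion, differed by 0.26 ± 0.05 (adjusted p = 0.0619) with values of 0.07 to 0.23 against −0.17 to −0.07. Neither gene's diet groups overlapped.

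The auxiliary enzymes that handle unsaturated chains gave differences of 0.31 ± 0.07 for Decr1, 0.28 ± 0.06 for Eci2, 0.26 ± 0.05 for Ech1 and 0.20 ± 0.07 for Eci1. Short-chain Acads differed by 0.29 ± 0.07, Hadh by 0.18 ± 0.04 and medium-chain Acadm by 0.12 ± 0.05. The electron carriers Etfb, Etfa and Etfdh, which pass electrons from the dehydrogenases to the respiratory chain, differed by 0.20, 0.14 and 0.13. The diet groups did not overlap in any of these genes, and none passed. The 4 list members with overlapping groups were Hadhb, Acadl (0.04 ± 0.04), the acyl-CoA synthetase Acsl6 (0.03 ± 0.07) and Echs1 (−0.04 ± 0.04). The mean over the 19 genes lay between 0.028 and 0.138 in the mice on the high-fat diet and between −0.170 and −0.095 in those on chow.

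**Figure D2:**
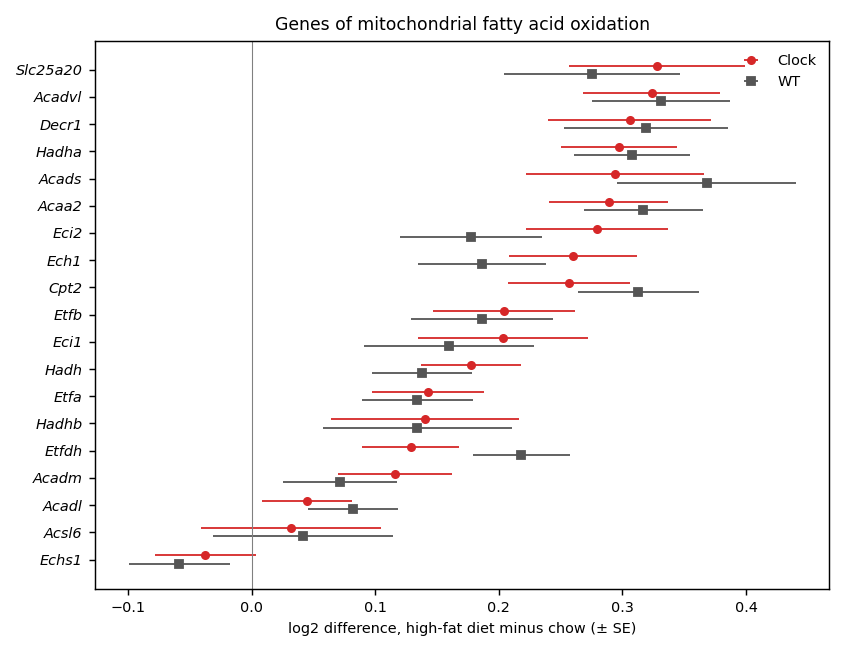
Log2 difference between high-fat diet and chow (horizontal axis, bars are SE, 4 mice per group) for the 19 measured genes of mitochondrial fatty acid oxidation, in Clock (circles) and WT hearts (squares). The Clock values run from −0.04 for Echs1 to 0.33 for Slc25a20, and the WT values sit beside them for most genes.

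In the peroxisome, which shortens very long and branched chains, 1 of 16 measured genes rose and none fell. It was Hsd17b4, the bifunctional enzyme of peroxisomal beta-oxidation, at 0.07, 0.16, 0.20 and 0.21 on the high-fat diet and −0.27, −0.12, −0.13 and −0.28 on chow. It rose by 0.36 ± 0.06 (1.28-fold, adjusted p = 0.0234). Abcd3, a fatty acid transporter of the peroxisomal membrane, and Pex11a, which takes part in peroxisome division, had non-overlapping groups with differences of 0.29 ± 0.06 (adjusted p = 0.0687) and 0.30 ± 0.07 (adjusted p = 0.114). In 3 of the 16 genes the diet groups did not overlap, all higher on the high-fat diet, against 2.89% of all genes. The list's median difference was 0.096.

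Among 30 measured PPAR target genes, 2 rose, Ephx2 and Acaa2, and none fell. Diet groups did not overlap in 12 of the 30, all higher on the high-fat diet, against 2.89% of all genes, and the list's median difference was 0.26. The lipid lists share members, so their counts are not independent. Acaa2, Slc25a20 and Ech1 are counted both here and in the oxidation list. Plin2, Plin4 and Cidea are counted both here and in the lipid droplet list. Ephx2 encodes soluble epoxide hydrolase, which breaks down fatty acid epoxides. It read 0.12, 0.20, 0.18 and 0.33 on the high-fat diet and −0.32, −0.34, −0.22 and −0.21 on chow, a rise of 0.48 ± 0.06 (1.40-fold, adjusted p = 0.00666).

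Larger differences in this list were less even between mice. Pdk4, the kinase that shuts off pyruvate dehydrogenase, read 0.41, 0.22, 0.59 and 0.73 against −0.38, −0.64, −0.30 and 0.22. The groups met because chow replicate 4 reached the level of the lowest mouse on the high-fat diet, and the test was missed at a difference of 0.76 ± 0.16 (adjusted p = 0.0940). Without that chow mouse it was 0.92 and passed (adjusted p = 0.0293). Ucp3, an uncoupling protein of the mitochondrial inner membrane, read −0.01, 0.01, 0.04 and 0.10 against −0.54, −0.92, −0.47 and −0.23, a difference of 0.58 ± 0.14 (adjusted p = 0.140). Its chow mice were spread widely below a tight high-fat group. Angptl4, a secreted inhibitor of lipoprotein lipase, overlapped between diets (0.53 ± 0.21, adjusted p = 0.493). The uptake genes Lpl and Fabp3 differed by 0.00 ± 0.05 and −0.06 ± 0.07, and the fatty acid translocase Cd36 by 0.14 ± 0.04 with non-overlapping groups (adjusted p = 0.304).

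No gene of lipid droplets and lipolysis passed out of 19, though 6 had non-overlapping groups, all higher on the high-fat diet, against 2.89% of all genes. They included the droplet coat genes Plin4 (0.28 ± 0.06) and Plin2 (0.26 ± 0.06), the droplet protein gene Cidea (0.35 ± 0.09), hormone-sensitive lipase Lipe (0.26 ± 0.07) and Dgat2 (0.22 ± 0.10), which makes triglyceride. Triglyceride and fatty acid synthesis had 22 measured genes, none of which passed, and a median difference of −0.0021. Gpam, which starts glycerolipid synthesis, differed by 0.49 ± 0.09 (adjusted p = 0.0601), and Elovl6, a fatty acid elongase, by −0.25 ± 0.07 (adjusted p = 0.204). None of 22 cholesterol genes passed. Mylip, which degrades the LDL receptor, and the cholesterol exporter Abca1 were higher without overlap (0.32 ± 0.07 and 0.16 ± 0.05), against 2.89% of all genes. The 13 white adipocyte markers averaged −0.018 to 0.143 on the high-fat diet and −0.006 to 0.078 on chow. The 9 brown adipocyte markers, which include Cidea and Pdk4, averaged 0.042 to 0.092 and −0.084 to −0.036, with 5 of 9 differences above 0 and none passing. Their part in the lipid genes was not tested.

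Mthfd2 showed the largest rise of all genes that passed. It encodes a mitochondrial enzyme of folate metabolism that supplies carbon units for nucleotide synthesis and is a known target of the amino acid stress factor ATF4. It read 0.87, 0.84, 0.98 and 0.88 in the mice on the high-fat diet and 0.47, 0.18, −0.18 and 0.17 in those on chow. The high-fat mice lay close together and the chow mice were spread, with a rise of 0.73 ± 0.10 (1.66-fold, adjusted p = 0.00666). The difference was 1.12 after quantile normalization, and the call was lost with trend and robust eBayes (adjusted p = 0.158) and with the 8 Clock arrays alone (adjusted p = 0.0760). Nars, which charges the transfer RNA for asparagine, read 0.28, 0.32, 0.31 and 0.33 against 0.06, −0.02, −0.12 and −0.08, and rose by 0.35 ± 0.06 (1.28-fold, adjusted p = 0.0304).

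Mthfd2 was the only one of 28 measured genes of the endoplasmic reticulum and integrated stress response to pass, and the list's median difference was −0.0086. Other ATF4 targets gave 0.15 ± 0.07 for asparagine synthetase Asns, 0.10 ± 0.06 for Psat1, 0.05 ± 0.07 for Trib3 and −0.11 ± 0.08 for Ddit3, all with overlapping groups. Shmt2, the mitochondrial serine enzyme upstream of Mthfd2, differed by 0.15 ± 0.10.

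The promoter of Mthfd2 is shown because that gene rose most and its window holds 3 CCAAT boxes. It lies at chr6:83317605-83317854 (GRCm38.p6, minus strand, RefSeq), with CCAAT or its reverse complement ATTGG in capitals.
Mthfd2: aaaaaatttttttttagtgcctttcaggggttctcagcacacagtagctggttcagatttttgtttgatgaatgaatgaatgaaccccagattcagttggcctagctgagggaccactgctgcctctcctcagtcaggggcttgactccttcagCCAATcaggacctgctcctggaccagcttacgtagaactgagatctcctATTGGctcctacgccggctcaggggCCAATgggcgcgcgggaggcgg
These boxes begin 96, 47 and 22 bases before the start. At least 1 CCAAT was present on either strand in 34.5% of all promoters of this length and in 5 of the 13 genes with an entry. The share of promoters with 3 boxes was not counted. The ATF4 composite site TGATGNAA was in 3.53% of all promoters and in 1 of the 13, Pla2g2d, and the E-box CACGTG in 6.05% and in none of the 13.

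Scn4b encodes an auxiliary beta subunit of the cardiac sodium channel. It read 0.05, 0.19, 0.40 and 0.34 on the high-fat diet and −0.21, −0.33, −0.26 and −0.47 on chow, a rise of 0.56 ± 0.08 (1.48-fold, adjusted p = 0.00666). It was the only one of 32 measured ion channel and calcium handling genes to pass. Scn4b was also the 1 gene of the list that was higher without overlap, and 2 were lower, against 2.89% and 2.42% of all genes. Among potassium channel genes, Kcnd2 (0.13 ± 0.10), its partner Kcnip2 (−0.12 ± 0.16) and Kcnh2 (−0.01 ± 0.09) overlapped between diets. The calcium release channel Ryr2 differed by 0.13 ± 0.05 (adjusted p = 0.414).

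Vwa8, a mitochondrial ATPase, lay between 0.06 and 0.30 on the high-fat diet and between −0.31 and −0.24 on chow, and rose by 0.45 ± 0.06 (1.37-fold, adjusted p = 0.00666). Snora73b, a small nucleolar RNA, rose by 0.38 ± 0.05 (adjusted p = 0.00758; 0.107 with trend and robust eBayes). Its 8 values fell into a tight pair of groups, 0.21 to 0.33 and −0.15 to −0.07. Med8, a subunit of the Mediator complex that links transcription factors to RNA polymerase, rose by 0.26 ± 0.05 (adjusted p = 0.0376) with values of 0.14 to 0.25 against −0.11 to −0.01.

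C7 showed the largest difference of either sign among the genes that passed. Its protein joins C5b and C6 in the membrane attack complex. It read −0.86, −0.96, −0.66 and −0.64 on the high-fat diet and 0.18, 0.15, 0.09 and 0.75 on chow. It fell by 1.07 on the log2 scale (SE 0.18; 2.11-fold lower, adjusted p = 0.0289). The chow mouse at 0.75, replicate 4, stood above the other 3, and without it the difference was −0.92 (adjusted p = 0.0742). The other 17 of 18 measured complement genes did not pass, and the list's median difference was −0.043.
The sequence before the C7 start is shown as the other window with AGGTCA, here in a gene that fell (chr15:5063774-5064023, GRCm38.p6, minus strand, RefSeq, motif in capitals).
C7: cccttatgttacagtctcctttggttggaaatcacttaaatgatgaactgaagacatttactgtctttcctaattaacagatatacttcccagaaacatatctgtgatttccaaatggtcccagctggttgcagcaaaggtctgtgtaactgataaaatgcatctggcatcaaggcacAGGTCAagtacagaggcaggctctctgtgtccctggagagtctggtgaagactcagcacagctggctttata
Its motif begins 72 bases before the start.

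Tgfb1, the main fibrosis-promoting growth factor, read −0.13, −0.19, −0.29 and −0.25 against 0.07, 0.17, 0.11 and 0.22, and fell by 0.36 (SE 0.05; 1.28-fold lower, adjusted p = 0.00666). It was the only one of 41 measured extracellular matrix genes to pass. The collagen genes Col1a1 and Col3a1 differed by 0.07 ± 0.10 and 0.09 ± 0.11, and periostin (Postn), a matrix protein of activated fibroblasts, by 0.34 ± 0.10 in the opposite direction (adjusted p = 0.258). The related growth factors Tgfb2 and Tgfb3 differed by −0.09 ± 0.11 and 0.11 ± 0.06.

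Tfpi, which inhibits the tissue factor pathway of coagulation and is made by endothelial cells, read −0.15, −0.56, −0.47 and −0.32 against 0.32, 0.01, 0.09 and 0.15. It fell by 0.52 (SE 0.08; 1.44-fold lower, adjusted p = 0.0234), and its mice were spread widely within both diets. Mr1, which presents bacterial vitamin metabolites to T cells, read −0.40, −0.42, −0.56 and −0.51 against −0.07, 0.05, −0.03 and 0.03, and fell by 0.47 (SE 0.07; adjusted p = 0.0234). Pla2g2d, a secreted phospholipase, fell by 0.38 (SE 0.07; adjusted p = 0.0335), and Cd81, a tetraspanin of the cell surface, by 0.28 (SE 0.05; adjusted p = 0.0376).

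Krt222, a keratin-related gene, fell by 0.48 (SE 0.08; adjusted p = 0.0376), with values of −0.46 to −0.23 on the high-fat diet and −0.11 to 0.22 on chow. Dad1, a subunit of the enzyme that attaches sugar chains to proteins, fell by 0.45 (SE 0.08; adjusted p = 0.0335). Prmt5, which methylates arginines of histones and splicing proteins, fell by 0.34 (SE 0.06; adjusted p = 0.0335). Dad1 and Prmt5 lie on the same chromosome, with 8 protein-coding genes between them in the RefSeq order. They are the closest of several same-chromosome pairs among the passing genes, and whether their closeness exceeds chance was not tested.

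Markers of other cell types moved beside some of the genes that fell, and none of the 20 cell type lists had a gene that passed. With array weights the endothelial marker Emcn (adjusted p = 0.0466) and the skeletal muscle marker Myl1 (adjusted p = 0.0412) did, as did Pdk4 of the brown adipocyte list (adjusted p = 0.0412). In the lymphatic endothelial list, 0 of 6 differences were above 0. Its mean lay between −0.137 and −0.041 on the high-fat diet and between 0.078 and 0.106 on chow, so the groups did not overlap. Lyve1, the hyaluronan receptor of lymphatic vessels, differed by −0.33 ± 0.09 and Prox1, their defining transcription factor, by −0.21 ± 0.07. In the endothelial list 7 of 14 differences were above 0, and Emcn differed by −0.32 ± 0.06 (adjusted p = 0.0792). The epicardial list averaged −0.081 to 0.033 against 0.021 to 0.098, with 2 of 8 differences above 0 and Upk3b at −0.29 ± 0.07. The 15 macrophage markers averaged −0.210 to 0.065 against −0.100 to 0.143 and the 5 platelet markers −0.257 to 0.398 against −0.130 to 0.917, with overlap in both. The 12 skeletal muscle markers averaged −0.034 to 0.077 against −0.154 to −0.040, with 6 differences above 0. The part of these lists in the genes that fell was not tested. In whole tissue, fewer cells of a type and less RNA per cell cannot be told apart, and centred values do not show which markers were near background.

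The pathway lists without a passing gene are described by counts. Over the 29 pathway lists, 7 had a passing member: fatty acid oxidation, PPAR targets, peroxisome, stress response, ion channels, extracellular matrix and complement. In the proteasome and muscle protein breakdown list, 7 of 37 genes were higher in every high-fat mouse and 1 was lower, against 2.89% and 2.42% of all genes, 29 differences were above 0, against 50%, and Psmb1, a core subunit, differed by 0.29 ± 0.06 (adjusted p = 0.0873). Without chow replicate 2, Psmb1 differed by 0.34 and passed (adjusted p = 0.0475). Among glucocorticoid and FOXO targets, 4 of 28 were higher without overlap, against the same 2.89%, and the median difference was 0.16. They included Ddit4, an inhibitor of mTOR signalling, which read 0.88, 0.77, 0.47 and 0.67 against −0.04, 0.17, 0.04 and 0.18 (0.61 ± 0.12, adjusted p = 0.0590). Zbtb16, a transcription factor induced by glucocorticoids, read 0.60, 1.01, 0.82 and 0.70 against −0.60, −0.22, −0.11 and 0.46 (0.90 ± 0.22, adjusted p = 0.127). The chow mice were spread over a wider range than the high-fat mice in Zbtb16.

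Glucose use had a median difference of 0.0068 over 28 genes, with 2 genes higher without overlap, against 2.89% of all genes. Pfkl, a subunit of the enzyme that commits glucose to glycolysis, differed by 0.31 ± 0.08 (adjusted p = 0.156). The respiratory chain and ATP synthase had a median difference of 0.023 over 59 genes, with 2 higher and 1 lower without overlap, close to the shares over all genes (2.89% and 2.42%). Its Cox6a2, a muscle form of a cytochrome oxidase subunit, differed by −0.30 ± 0.06 (adjusted p = 0.0912). Among 7 measured ketone genes, Acat1 and Bdh2 were higher without overlap (0.17 ± 0.05 and 0.14 ± 0.05), against 2.89% of all genes. Higher and lower without overlap were 5 and 2 of 31 insulin, AKT and mTOR genes, against 2.89% and 2.42% of all genes. These counts were 4 and 0 of 30 for autophagy and lysosome and 3 and 2 of 22 for heat shock chaperones. Antioxidant genes gave 2 and 0 of 30, and fatty acid and triglyceride synthesis 2 and 0 of 22. Branched-chain amino acid breakdown gave 1 and 1 of 22, and proliferation 1 and 1 of 25. Adipokines gave 0 and 0 of 18, and immediate early genes 0 and 1 of 27.

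In the immune lists other than complement, which holds C7, most differences were below 0 and no gene passed. The mean of each list overlapped between diets, in antigen presentation with −0.155 to 0.018 on the high-fat diet and −0.025 to 0.229 on chow. Differences were above 0 in 2 of 17 antigen presentation genes (median −0.17), 6 of 30 interferon-induced genes (median −0.10) and 10 of 34 inflammatory genes (median −0.054), against 50% of all genes. Diet groups overlapped in all 17 antigen presentation genes, and 1 gene in each of the other lists was lower without overlap, against 2.42% of all genes. The inflammatory one was Ccl11, the eosinophil chemokine eotaxin, at −0.02, −0.18, −0.29 and −0.30 against 0.48, 0.36, 0.45 and 0.98 (−0.77 ± 0.15, adjusted p = 0.0601). The mouse at 0.98 was again chow replicate 4. Stretch-responsive and fetal cardiac genes overlapped between diets in all 23, and the skeletal actin gene Acta1 had the largest difference, 0.96 ± 0.31 (adjusted p = 0.351), with values of −0.36 to 0.27 against −1.47 to −0.26.

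**Figure D3:**
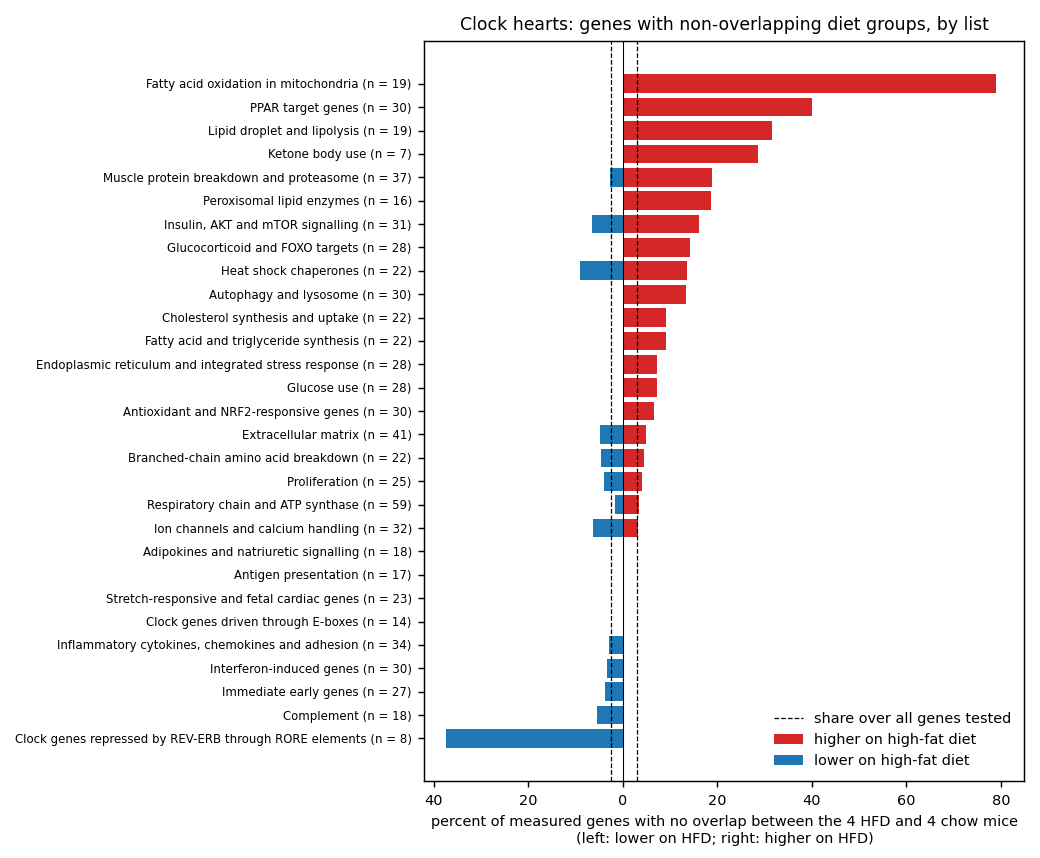
Percent of each pathway list's measured genes whose 4 Clock mice on the high-fat diet and 4 on chow do not overlap (right, higher on the high-fat diet; left, lower), with dashed lines at the shares over all genes tested (2.89% and 2.42%). Fatty acid oxidation stands at 15 of 19 genes, and the REV-ERB list of clock genes at 3 of 8 on the left.

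No clock gene passed between diets in Clock hearts. None of the 14 measured genes driven through E-boxes passed or had non-overlapping groups, and their median difference was 0.076. Clock itself read 0.05, −0.01, 0.04 and 0.01 on the high-fat diet and 0.12, 0.13, 0.01 and 0.07 on chow (−0.06 ± 0.08, adjusted p = 0.913). The probe set was not matched to the deleted exon, so this level does not check the mutation.

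Dbp, a direct output gene of the clock, differed by 0.04 ± 0.27 and Per3 by 0.10 ± 0.15. The repressor genes Nr1d1 and Nr1d2, which encode the REV-ERB receptors, differed by −0.16 ± 0.11 and 0.23 ± 0.16. None of the 8 measured genes repressed by REV-ERB passed, and 3 of them were lower without overlap, against 2.42% of all genes: Npas2 (−0.30 ± 0.16), Arntl (−0.24 ± 0.26) and E2f8 (−0.10 ± 0.05). Arntl read 0.05, 0.09, 0.06 and −0.05 on the high-fat diet against 0.43, 0.37, 0.18 and 0.12 on chow, and its SE, estimated over all 16 arrays, also takes in the wider spread of the WT mice.

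In WT hearts, Arntl, Cdkn1a and Wee1 passed between diets, and the test of the difference between genotypes did not pass for any clock gene. Arntl read −1.54, −1.94, −2.12 and −1.93 in WT mice on the high-fat diet and −0.32, −0.66, −1.34 and 0.54 on chow, a fall of 1.43 (SE 0.26, adjusted p = 0.0245). The diet difference in Clock minus that in WT was 1.20 ± 0.36 (adjusted p = 0.793). The cell cycle inhibitor Cdkn1a fell by 1.30 in WT and differed by 0.05 ± 0.23 in Clock, a difference between genotypes of 1.35 ± 0.33 (adjusted p = 0.760). The cell cycle kinase gene Wee1 rose by 0.79 in WT and differed by 0.15 ± 0.15 in Clock (−0.64 ± 0.21 between genotypes, adjusted p = 0.867). The WT chow array of replicate 4 was the highest of its group in Arntl and Cdkn1a and the lowest in Dbp, at 0.37 against 1.71 to 2.29 in the other 3, and in Wee1 it lay within their range. Without it, the WT difference was −1.10 ± 0.18 for Arntl (adjusted p = 0.0293), −1.16 ± 0.24 for Cdkn1a (adjusted p = 0.0821) and 0.72 ± 0.16 for Wee1 (adjusted p = 0.114), so the calls of Cdkn1a and Wee1 were lost. The WT difference of Dbp went from 0.71 ± 0.27 to 0.31 ± 0.14.

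**Figure D4:**
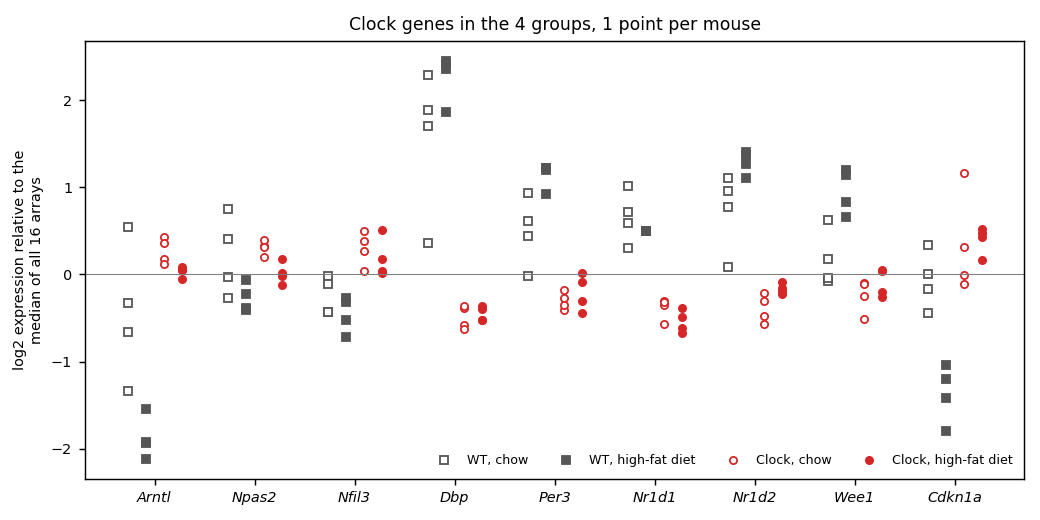
Log2 expression relative to the median of all 16 arrays (vertical axis) for 9 clock genes, with 1 point per mouse in the 4 groups (squares, WT; circles, Clock; open, chow; filled, high-fat diet). Clock mice on both diets sit close together for Dbp and Arntl, while WT mice on chow spread from 0.37 to 2.29 for Dbp and from −1.34 to 0.54 for Arntl.

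The diet differences of the 20 genes were set beside those in WT hearts, which share no arrays with them but share the estimate of spread. All 20 had the same sign in WT, against 57.6% of all genes, and 14 also had non-overlapping WT groups in the same direction, against 2.8% higher and 2.5% lower over all genes. In WT hearts 78 genes passed (0.352%), and 8 genes passed in both genotypes: Ephx2, Vwa8, Scn4b, Tgfb1, Hadha, Acaa2, Acadvl and C7. These are 40% of the genes that passed in Clock and 10.3% of those that passed in WT. Of the 78, 69 had the same sign in Clock.

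The oxidation enzymes differed nearly as much in both genotypes, with 0.30 in Clock and 0.31 in WT for Hadha, 0.32 and 0.33 for Acadvl and 0.29 and 0.32 for Acaa2. The differences between genotypes were −0.01 ± 0.07, −0.01 ± 0.08 and −0.03 ± 0.07. The list as a whole had a median of 0.20 in Clock and 0.19 in WT. In WT, 11 of its 19 genes were higher without overlap, against 2.8% of all genes. PPAR targets had a median of 0.26 in Clock and 0.13 in WT, with 12 and 4 of 30 genes higher without overlap, against 2.89% and 2.8% of all genes. That difference between genotypes was not tested as a list, and none of its genes passed the test of it.

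Among the 20, Mthfd2, Krt222, Nars and Med8 had the smallest p for a difference between genotypes. Mthfd2 read −0.02, 0.02, −0.12 and −0.25 in WT mice on the high-fat diet and −0.26, −0.24, −0.37 and −0.22 on chow, a difference of 0.18 ± 0.10 (adjusted p = 0.546). Its diet difference was 0.55 ± 0.14 larger in Clock (unadjusted p = 0.00111, adjusted p = 0.760 in limma). The corresponding values were 0.29 ± 0.08 for Nars, −0.46 ± 0.12 for Krt222 and 0.19 ± 0.06 for Med8, with adjusted p-values of 0.760, 0.760 and 0.868. Of the 20 genes, 15 had a larger difference in Clock than in WT, a direction that choosing them in Clock favours.

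Over all genes, none passed the test of a difference between genotypes in the diet effect (limma), and 1122 had an unadjusted p under 0.05, which is 5.06% of genes. The smallest p belonged to Wipf3, an actin-regulating protein gene, at −0.45 ± 0.07 (unadjusted p = 7.25e-06, adjusted p = 0.150). It read −0.09, −0.02, −0.13 and −0.14 on the high-fat diet and −0.02, 0.06, 0.05 and −0.03 on chow in Clock hearts. In WT hearts it read 0.26, 0.36, 0.39 and 0.34 against −0.01, 0.01, 0.10 and −0.10, a rise of 0.34 ± 0.05 (adjusted p = 0.00933). Predicted and Y-linked genes were left out of the ranking that follows, so it is not the order over all genes. The next 4 in it were the poly-ADP-ribosyl transferase gene Parp8 (−0.44 ± 0.09), Dpy19l3 (0.40 ± 0.08), the potassium channel Kcnj10 (−0.46 ± 0.09) and Zfp623 (−0.31 ± 0.07).

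**Figure D5:**
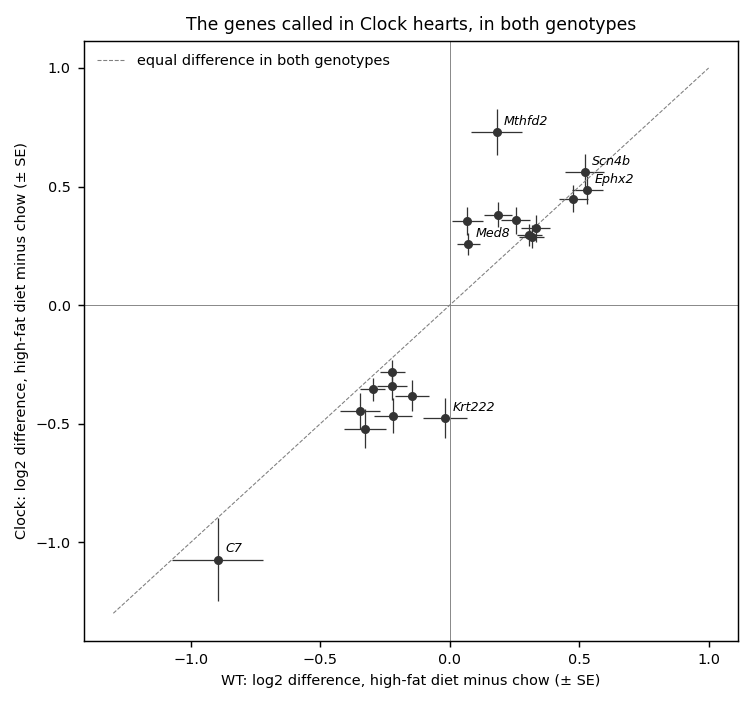
Log2 difference between high-fat diet and chow for the 20 genes that passed in Clock hearts, in WT (horizontal axis) and in Clock (vertical axis), with SE bars and a dashed line of equal difference. Ephx2, Scn4b and C7 lie near the line, and Mthfd2 (0.73 in Clock, 0.18 in WT) and Krt222 (−0.48 and −0.02) lie away from it.

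The calls changed when 1 mouse was left out. With 1 of the 8 Clock arrays left out, between 6 and 14 genes passed: 14, 8, 6 and 8 without high-fat replicates 1 to 4, and 7, 10, 9 and 9 without chow replicates 1 to 4. Ephx2, Vwa8, Scn4b, Snora73b, Tgfb1 and Mthfd2 passed in all 8 of these fits. In the fit of the 8 Clock arrays alone, Scn4b and Tgfb1 also missed the threshold (adjusted p = 0.0758 for both), and of these 6 genes only Ephx2 and Vwa8 passed under every alternative run. C7, Acaa2, Cd81 and Med8 passed in none of the 8, though each kept its direction, and the other 10 genes passed in 1 to 3. The oxidation list kept 15 or 16 of 19 genes without overlap in each of them, while its count of passing genes fell from 3 to between 0 and 1.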

How the data were processed

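Expression was measured on Affymetrix arrays, 1 per heart, from 500 ng of total RNA per the labels' protocols. The authors deposited log2 values, taken as such here because neither the base, the sign nor the normalization is given in the sources used here. The median of every probe set over the 16 arrays was 0 within 1e-06, so the values hold no absolute levels and no filter on dim genes could be made. Probe sets with several symbols (1814) or none (9016) were left out, the rest were averaged per gene, and 1082 genes had several. Gene symbols came from the platform annotation.

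Groups followed the sample titles. limma 3.58.1 (R 4.3.3) was fitted to all 16 arrays with a mean for each group, which left 12 residual degrees of freedom beside 4.16 from the prior, and p-values were adjusted over 22180 genes. Contrasts were the diet difference in Clock, the same in WT, and their difference. The labels call the arrays biological replicates. A gene passed at an adjusted p under 0.05. On simulated data with 200 changed genes, the Clock diet test recovered 26.2% of log2 changes of 0.25, 96.0% of 0.5 and 99.8% of 1, and 5.08%, 4.52% and 5.13% of its calls were false. The simulated noise was normal and independent between genes, and 200 genes changed where 20 passed in the hearts, which eases the adjustment. These rates therefore do not give the recovery in the hearts, where Pdk4 (0.76) and Acta1 (0.96) did not pass.

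Genes were named by a rule: the clock genes, the passing genes with non-overlapping groups, up to 4 passing members of each of 49 lists or else the 2 with the smallest p, and the 5 smallest interaction p-values. Predicted genes, known only by a clone or model number, and Y-linked genes were left out when passing and interaction genes were picked. Other list members are named to describe their list, with their values already known. The members and lists were chosen with earlier results of these data known. Lists are described by counts and medians, with no set test. Promoters were matched by symbol to RefSeq (GRCm38.p6): 13 of the 20 genes that passed had an entry.

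Alternatives were single probe sets, genes with 1 probe set, trend and robust eBayes, array weights, quantile normalization, the 8 Clock arrays alone, the replicate number as a block, and each array left out. Deviations of same-numbered Clock arrays from their group means correlated between −0.149 and −0.023 over all genes. This gave no sign that the numbers pair the mice, but cannot exclude an effect shared by number on single genes. Figures were drawn with matplotlib 3.10.9.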

Additional observations from a re-analysis of the deposited data

Results flagged for a closer look

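In 14 of 246 tests, 1 mouse stood apart from the other 3 of its diet group, which is close to the rate of about 1 in 20 that chance alone gives. The mice are therefore listed only as flagged by the test. The test compares the gap to the nearest mouse with the group's range. Among genes that passed, Acaa2 read 0.233 in high-fat replicate 4 against 0.062 to 0.068 in the other 3, Pla2g2d read −0.178 there against −0.270 to −0.257, and C7 read 0.752 in chow replicate 4 against 0.091 to 0.180. On the high-fat diet, Acadsb, of branched-chain amino acid breakdown, read −0.171 in replicate 4 against −0.131 to −0.124, and Postn read 0.071 in replicate 1 against 0.384 to 0.438. High-fat replicate 2 stood apart in Ccl3 (−0.323 against 0.069 to 0.092), in Pcna (0.015 against −0.109 to −0.092) and in the epicardial marker Upk1b (0.188 against −0.215 to −0.163). On chow, replicate 2 stood apart in Upk1b as well (0.224 against −0.030 to 0.007) and in Psmb1 (0.102 against −0.134 to −0.099). Chow replicate 1 was low in Egr1 (−0.041 against 0.204 to 0.252) and in Emcn (0.158 against 0.284 to 0.306). Chow replicate 4 was high in the clock gene Ciart (0.165 against −0.297 to −0.246), and chow replicate 3 was low in Parp8 (−4e-04 against 0.071 to 0.075).

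Bdh2, a cytosolic dehydrogenase of the ketone list, and Parp8 had diet differences of opposite sign in the genotypes, with non-overlapping diet groups in each. The diet difference of Bdh2 was 0.14 ± 0.05 in Clock and −0.17 ± 0.05 in WT, a difference of 0.31 ± 0.08. That of Parp8 was −0.17 ± 0.06 and 0.26 ± 0.06, a difference of −0.44 ± 0.09. The test of the difference between genotypes gave adjusted p-values of 0.760 and 0.680 in limma. Of the 22180 genes, 7 showed such opposite separation. Groups without overlap in a single genotype were found in 2.89% (higher) and 2.42% (lower) of genes in Clock, and in 2.8% and 2.5% in WT. Whether 7 differs from chance was not tested, so these 2 genes are not read as a difference between genotypes.

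Of the 10830 probe sets with several gene symbols or none, 9 passed between diets in Clock hearts in a fit of all 34351 probe sets, in which 30 passed.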

How the results depend on the processing

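The 20 genes that passed in Clock hearts were all among those that passed with array weights (53 genes), quantile normalization (43), single probe sets (21) and genes with 1 probe set (20). Fewer passed with trend and robust eBayes (8, all among the 20), with the 8 Clock arrays alone (7, of which 5 among the 20) and with the replicate number as a block (12, of which 9 among the 20). Correlations over all genes gave no sign of pairing by number in the Clock arrays, but they cannot exclude an effect shared by number on single genes. Under the block the oxidation list had 0 passing genes. What a call lost under the block means was not tested. Without 1 Clock array the count lay between 6 and 14, with fewer samples by construction. The causes of the other shifts were not tested. Lists with a passing member went from 7 to 4 with the replicate block and to between 4 and 6 without 1 array. The oxidation list had 15 or 16 genes and the PPAR list 12 to 16 without overlap under quantile normalization and without each Clock array, alternatives chosen after seeing the data, with 2.87% to 5.14% of all genes. No gene passed the test of a difference between genotypes under these alternatives, other than the 8 Clock arrays alone, which hold no WT arrays for it, or without any 1 of the 16 arrays. With array weights, 8 further named genes passed, Pdk4, Gpam, Ddit4, Ccl11, Plin4, Mylip, Emcn and Myl1, and with quantile normalization Gpam and Ccl11 did. Reversed signs appeared only in named genes that did not pass. Cry2 was −0.0079 with array weights. Without 1 Clock array, the differences that changed sign ranged from −0.0014 to 0.053 for Rora, −0.045 to 0.054 for Hlf, −0.18 to 0.33 for Per1, −0.096 to 0.33 for Cdkn1a, −0.11 to 0.0066 for Slc4a1, −0.0084 to 0.076 for Dbp, −0.0077 to 0.22 for Bhlhe41 and −0.064 to 0.12 for Cry2. Without WT chow replicate 4, also chosen after seeing the data, the WT difference of Ciart was −0.18, and the differences between genotypes of Ciart and Nr1d1 were 0.040 and 0.12. No filter on dim genes was tried, since the values hold no levels. With 4 mice a group, changes near 0.25 were mostly out of reach in the simulation, and some larger differences did not pass in the hearts.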
